A study of Mus musculus with 3 samples.

Results

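The Krüppel-like factors (Klf) and specificity proteins (Sp) form 1 family of transcription factors, and 10 of its genes were followed here by their symbols: Klf1, Klf2, Klf3, Klf4, Klf6, Klf7, Klf10, Klf13, Sp1 and Sp3. All 10 were found among the 24421 gene symbols counted in each library. The libraries were made from mouse bone marrow hematopoietic stem and progenitor cells (HSPCs), sorted for c-Kit and Sca-1 after removal of lineage-marked cells. There is a single group of 3 control libraries, numbered 1 to 3 as in their titles. All came from C57BL/6 mice labelled Cicflox/flox with tamoxifen, in which both alleles of Capicua (Cic) are flanked by loxP sites. The group is named UCK control, and its labels give no Cre driver, age or number of animals. The second mouse group of the series was not analysed here, so no contrast between genotypes is made. Whether they derive from different mice is not labelled, so the spread between them, and any p-value built on it, may be technical.

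Proteins of this family carry a run of zinc fingers at their C-terminal end, which bind GC boxes and the related CACCC boxes in promoters. They differ outside the fingers. Sp1 and Sp3 act at GC boxes of very many genes, Klf1, Klf2, Klf4, Klf6 and Klf7 are mostly activators, Klf3 recruits the corepressor CtBP, and Klf10 and Klf13 recruit the corepressor Sin3A. In blood, Klf1 drives red cell genes, Klf2 keeps lymphocytes quiescent and recirculating, and Klf4 takes part in monocyte differentiation.

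The members' own promoters were searched for the letters that these proteins bind, and 4 are shown: those of Klf2 and Klf4, the members that spread most between libraries, that of Sp3, a steady one, and that of Klf1, the 1 member whose window held no GC box. RefSeq windows of 250 bases before and 50 after a start (GRCm38.p6, the assembly of mm10) matched 9 of the 10 members, Sp3 with a pair of starts, which gives 10 windows. The letters GGGCGG, a GC box, were found on either strand in 9 of the 10 windows, against 35.7% of all 32851 promoter windows. The letters CACCC were found in 7 of 10, against 57.5% of all, and the CCAAT letters in 5 of 10, against 37.4%. None of the 10 windows held TATAAA (13.6% of all), the cyclic AMP response element letters TGACGTCA (1.79%) or a CArG box (1.63%). GC content ran from 51.3% to 76.7% in the member windows, with a median of 52.7% over all windows, and the GC box letters are made of G and C alone. The stretches below end before the first annotated exon and are written 5′ to 3′ on the gene's strand, with GC box and CACCC letters of either strand in capitals. They lie at chr8:84901732-84901927 (Klf1, plus strand), chr8:72318812-72319032 (Klf2, plus strand), chr4:55532476-55532725 (Klf4, minus strand) and chr2:72980447-72980696 (Sp3, minus strand).
Klf1: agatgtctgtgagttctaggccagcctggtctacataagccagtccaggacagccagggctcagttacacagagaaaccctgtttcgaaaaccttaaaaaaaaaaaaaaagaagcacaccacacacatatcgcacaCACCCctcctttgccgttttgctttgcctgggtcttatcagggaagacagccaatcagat
Klf2: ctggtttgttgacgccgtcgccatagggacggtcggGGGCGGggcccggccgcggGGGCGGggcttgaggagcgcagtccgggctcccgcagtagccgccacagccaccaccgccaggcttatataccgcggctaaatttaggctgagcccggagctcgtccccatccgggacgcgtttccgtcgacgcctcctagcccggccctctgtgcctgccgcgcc
Klf4: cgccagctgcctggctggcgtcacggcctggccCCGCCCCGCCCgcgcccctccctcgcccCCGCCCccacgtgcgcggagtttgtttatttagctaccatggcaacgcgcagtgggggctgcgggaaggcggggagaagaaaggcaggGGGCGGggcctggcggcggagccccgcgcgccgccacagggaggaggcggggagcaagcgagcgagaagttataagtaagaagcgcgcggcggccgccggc
Sp3: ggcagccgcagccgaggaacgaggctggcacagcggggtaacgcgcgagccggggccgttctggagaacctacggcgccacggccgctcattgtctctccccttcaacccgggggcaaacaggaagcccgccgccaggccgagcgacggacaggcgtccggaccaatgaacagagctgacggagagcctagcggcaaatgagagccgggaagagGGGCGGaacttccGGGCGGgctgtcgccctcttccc
These stretches hold 0 GC boxes for Klf1, 2 for Klf2, 4 for Klf4 and 2 for Sp3. CACCC letters occur once, in the stretch of Klf1. A match of letters is a description of the sequence and was not tied to binding.

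The libraries held 30718562, 25097769 and 30032593 gene counts (libraries 1, 2 and 3), and values are given as counts-per-million of these (CPM), as mean ± SD over 3 libraries. A gene at 0 counts could lie at up to 0.0977 to 0.120 CPM, the level of 3 counts in each library. Spike-in RNAs (ERCC) gave 1.48%, 0.954% and 0.582% of the gene counts in libraries 1, 2 and 3, and the ribosomal precursor Rn45s took 11.8%, 8.20% and 7.91%. The sort markers Kit and Ly6a, which encodes Sca-1, lay at 826 ± 71.0 and 103 ± 9.50 CPM, and all 9 stem cell and sort genes reached 1 CPM. In bulk RNA, fewer cells of a type and less RNA per cell cannot be told apart.

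All 10 members were expressed in every library, and by CPM they fell on 2 levels. Sp1, Sp3, Klf10, Klf3, Klf13 and Klf6 had means from 67.5 to 374 CPM, and Klf7, Klf4, Klf1 and Klf2 from 4.60 to 8.67 CPM. No member lay between 8.67 and 67.5 CPM. The family genes outside the members filled this gap, among them Sp2 at 39.1, Klf9 at 25.5 and Klf8 at 13.2 CPM. The 2 levels therefore describe the chosen members and not the family. Per kilobase of exons the step between the levels was smaller, from 7.14 (Klf3) to 3.25 (Klf1). The high members were steady, with coefficients of variation from 3.53% (Sp3) to 11.7% (Klf13). The low members ranged from 22.9% (Klf1) to 90.2% (Klf2), and all 4 were lowest in library 1 and highest in library 3.

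**Figure D1:**
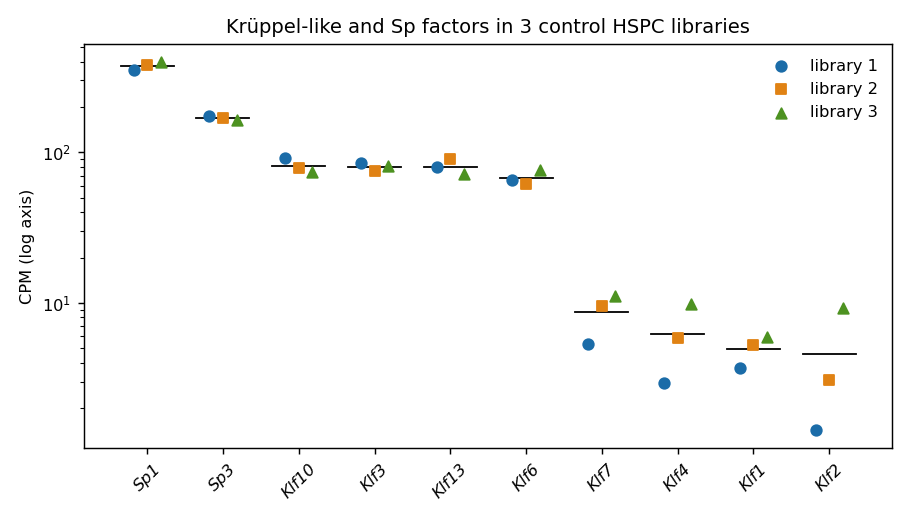
CPM (log axis) of the 10 members in each of the 3 control libraries, with 1 symbol per library and a black line at the mean. Sp1 to Klf6 lie above 61 CPM in every library, and Klf7 to Klf2 lie at or under 11.2 CPM, each with library 1 lowest and library 3 highest.

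Sp1 and Sp3, the GC box factors found in most cell types, were the most abundant members. Sp1 (chromosome 15, 102406143 to 102436404, plus strand, GENCODE M21) had 10732 counts in library 1, 9513 in library 2 and 11864 in library 3, which is 349, 379 and 395 CPM. With a mean of 374 ± 23.2 CPM it ranked 356 among all genes. The 3 values lay close together, and library 3 was 1.13 times library 1 (95% counting interval 1.10 to 1.16). Sp3 (chromosome 2, 72936427 to 72980446, minus strand) was counted 5378, 4264 and 4900 times, or 175, 170 and 163 CPM (mean 169 ± 5.98, rank 1185). Its order across libraries was the opposite of that of Sp1, highest in library 1 and lowest in library 3, where it was 0.932 times library 1 (0.896 to 0.969). The ratio of Sp1 to Sp3 per kilobase of annotated exons was therefore 1.19, 1.33 and 1.45 in libraries 1, 2 and 3. The antisense gene Sp3os covers 2.21% of the exon length of Sp3, and without a known strand setting its reads cannot be told from those of Sp3 there.

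Klf10 and Klf13, which share the Sin3A-binding repressor type, lay near 80 CPM. Klf10 is a gene induced early by TGF-beta. It lies on chromosome 15 (38291463 to 38300706, minus strand) and was counted 2791, 1975 and 2206 times, or 90.9, 78.7 and 73.5 CPM (mean 81.0 ± 8.93). Library 1 was highest for Klf10, and library 3 was 0.808 times library 1 (0.764 to 0.855). Klf13, known as an activator of the chemokine gene Ccl5 in T cells, lies on chromosome 7 (63886351 to 63938915, minus strand). Its counts of 2449, 2256 and 2137 gave 79.7, 89.9 and 71.2 CPM (mean 80.3 ± 9.38). Here library 2 was highest and library 3 lowest, so the order differed from that of Klf10, and their ranges overlapped.

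Klf3 and Klf6 completed the high level. Klf3, a repressor that Klf1 activates in red cell precursors, lies on chromosome 5 (64803388 to 64832901, plus strand). It had 2618, 1885 and 2422 counts, or 85.2, 75.1 and 80.6 CPM (mean 80.3 ± 5.07). The library 3 to library 1 ratio of Klf3 was 0.946, with a counting interval from 0.895 to 1.00. Klf6, an activator known as an early response gene, lies on chromosome 13 (5861482 to 5870394, plus strand) and had 2012, 1536 and 2279 counts, or 65.5, 61.2 and 75.9 CPM (mean 67.5 ± 7.55). Klf6 was highest in library 3, at 1.16 times library 1 (1.09 to 1.23).

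Klf2 had the widest spread of all 10 members. This gene (chromosome 8, 72319033 to 72321656, plus strand) had 44 counts in library 1, 77 in library 2 and 279 in library 3, which is 1.43, 3.07 and 9.29 CPM. It averaged 4.60 ± 4.15 CPM, an SD nearly as large as the mean, and all 3 libraries differed. Library 3 was 6.49 times library 1 (4.71 to 9.13) and 3.03 times library 2 (2.34 to 3.95), and library 2 was 2.14 times library 1 (1.46 to 3.18). Without library 3 the mean of Klf2 was 2.25 CPM.

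Klf4 had the same order of libraries with a smaller spread. It lies on chromosome 4 (55527143 to 55532466, minus strand) and was counted 90, 146 and 297 times, or 2.93, 5.82 and 9.89 CPM (mean 6.21 ± 3.50). Library 3 was 3.38 times library 1 (2.66 to 4.32) and 1.70 times library 2 (1.39 to 2.09). Library 2 was 1.99 times library 1 (1.52 to 2.61), so the 3 libraries were spaced apart for Klf4 as for Klf2.

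Klf7 and Klf1 were also lowest in library 1. Klf7, best known as a factor of neurons, lies on chromosome 1 (64029447 to 64122282, minus strand) and was counted 163, 240 and 335 times, or 5.31, 9.56 and 11.2 CPM (mean 8.67 ± 3.02). For Klf7 library 1 was the one apart, and the ratio of library 3 to library 2 was 1.17 (0.985 to 1.38). The count of Klf7 is uncertain, because annotated genes on the opposite strand (Gm13748 and Gm26649) cover 39.4% of its exon length and the strand setting of the counting is not given in the sources used here. Klf1, the erythroid activator, lies on chromosome 8 (84901928 to 84905291, plus strand) and was counted 114, 132 and 178 times, or 3.71, 5.26 and 5.93 CPM (mean 4.97 ± 1.14). Library 3 of Klf1 was 1.60 times library 1 (1.26 to 2.04) and 1.13 times library 2 (0.895 to 1.42). Of the 50-base words in a member's transcripts, those shared with transcripts of other genes made up 38.2% for Klf7 and at most 3.48% (Klf3) for the other members.

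**Figure D2:**
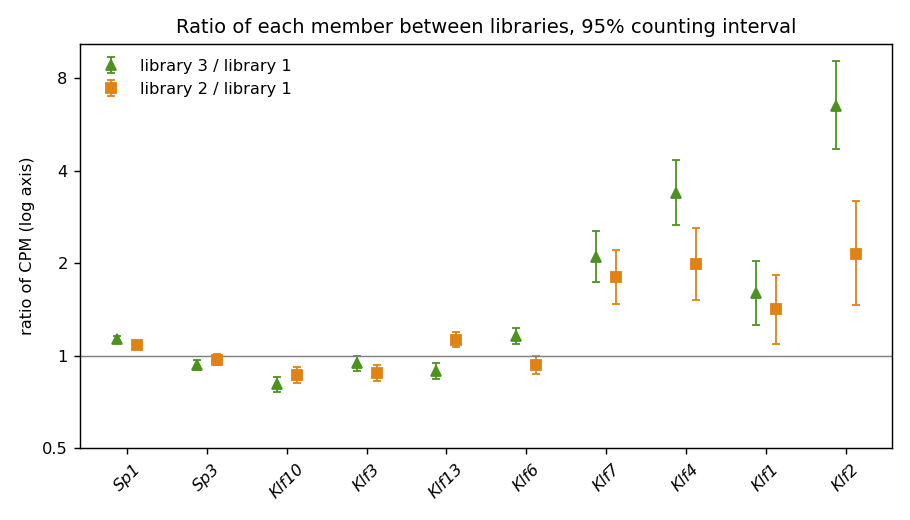
Ratio of CPM in library 3 (triangles) and library 2 (squares) to library 1 for each member, on a log axis, with exact 95% counting intervals. The 6 high members stay between 0.808 and 1.16, and the low members reach 6.49 in Klf2 and 3.38 in Klf4.

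Whether libraries differed by more than read counting was asked with a chi-square test on each gene's counts. All 10 members passed it after Benjamini-Hochberg adjustment over the 12965 genes that averaged 1 CPM or more, from an adjusted p of 3.07e-47 for Klf2 to 0.00242 for Sp3. Of all genes tested 82.6% passed, so the members' count is near that of genes at large. The test asks little of amplified reads, which are not independent molecules. With deep counts it also passed small differences: the CV of Sp1 was 6.19%, but 6.40 times its counting error, while that of Klf2 was 10.4 times its own. Without library 1, 6 of 10 members passed (Klf1, Klf7, Klf10 and Sp3 did not), against 51.4% of all genes.

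Whether a member spread more than genes of its own abundance was asked with edgeR's quasi-likelihood dispersion, divided by the trend over all genes. No member passed after adjustment (smallest adjusted p 0.982), and 0.00771% of all genes (1 of 12965) did. At an unadjusted p under 0.05 the count was 2 of 10, Klf2 and Klf4, against 4.54% of all genes. The dispersion of Klf2 was 9.51 times the trend and that of Klf4 5.19 times. Both had an edgeR adjusted p of 0.982. Klf7 followed at 2.76 times and Klf10 at 1.68 times the trend. Klf6 and Klf13 lay at 1.29 and 1.22 times. The other members were tighter than the trend, at 0.755 for Klf3, 0.605 for Klf1, 0.351 for Sp1 and 0.349 for Sp3. The CV of Klf1 was therefore one that genes of its low level commonly have. DESeq2 marked none of the 10 as a dispersion outlier, against 30 of 12965 genes.

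**Figure D3:**
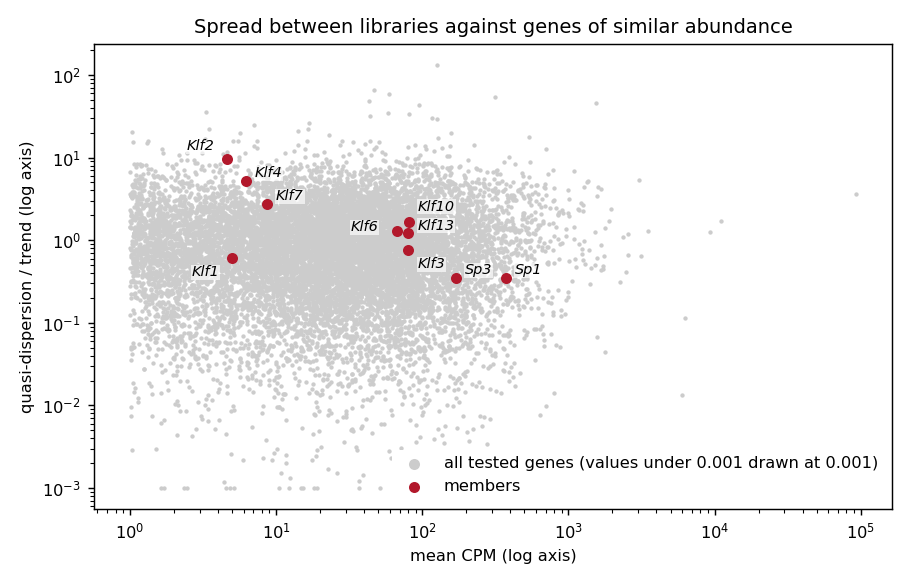
Ratio of each gene's quasi-dispersion to the trend against its mean CPM (both log axes), for 12965 tested genes in grey and the 10 members in red. Klf2 and Klf4 lie highest among the members, at 9.51 and 5.19, and Sp1 and Sp3 lowest, at 0.351 and 0.349.

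By size of change, 3 of 10 members (Klf2, Klf4 and Klf7) were at least 2-fold higher in library 3 than in library 1, and none was 2-fold higher in library 1. Over all tested genes the shares were 4.22% and 3.11%. Low genes reach such folds more often: among tested genes with a mean under 10 CPM they were 12.1% and 10.1%, and all 3 members are of that level. Against library 2 in place of library 1, only Klf2 of the 10 was 2-fold higher in library 3. The order with library 1 lowest and library 3 highest was seen in 5 of 10 members (the 4 low ones and Sp1), against 22.8% of all tested genes and 17.4% of those under 10 CPM. For each of the 10 members the highest and the lowest library were the same with plain totals, TMM, DESeq2 size factors and totals without Rn45s.

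Levels of different genes were set side by side per kilobase of annotated exons, since CPM grows with transcript length. On this scale (CPM per kilobase) the order was Sp1 at 45.3 ± 2.80, Sp3 at 34.3 ± 1.21, Klf10 at 19.4 ± 2.14, Klf6 at 15.4 ± 1.72, Klf13 at 10.7 ± 1.25, Klf3 at 7.14 ± 0.451, Klf1 at 3.25 ± 0.743, Klf2 at 2.49 ± 2.24, Klf4 at 2.04 ± 1.15 and Klf7 at 1.07 ± 0.372. Of 9 neighbouring pairs, 7 kept their order in 3 of 3 libraries. The first 6 of these pairs, down to Klf3 over Klf1, also did not overlap in their ranges. Their log2 gaps ran from 0.33 (SD 0.27, Klf10 over Klf6) to 1.16 (SD 0.42, Klf3 over Klf1). Klf1 and Klf2 kept their order in 2 of 3 libraries and Klf2 and Klf4 in 1 of 3, so these do not differ beyond their spread. Klf4 lay above Klf7 in 3 of 3 by 0.83 (SD 0.36), with overlapping ranges. Flipping the signs of the library differences in an exact permutation test (two-sided) gave p = 0.25 for each of the 7 pairs, the smallest that 3 libraries allow (0.321 after Benjamini-Hochberg adjustment over 9 pairs). With the length of the longest transcript Klf6 and Klf3 became neighbours and kept their order in 2 of 3 libraries. Klf3 has 11.2 kb of annotated exons, of which no single transcript holds more than 5221 bases, and its place moved from below to above Klf13 with the length used.

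The remaining family was read beside the members. Of 16 other Klf and Sp genes 8 reached 1 CPM: Sp4 at 76.8 ± 6.43, Sp2 at 39.1 ± 1.75, Klf11 at 35.2 ± 3.32, Klf9 at 25.5 ± 3.56, Klf12 at 24.1 ± 1.45, Klf8 at 13.2 ± 1.64, Klf16 at 8.71 ± 0.425 and Klf5 at 2.66 ± 0.440 CPM. Klf11 and Klf16 are Sin3A-binding like Klf10 and Klf13, and Klf8 and Klf12 bind CtBP like Klf3, so each repressor type had several expressed genes. Chi-square tests passed 4 of these 8, against 82.6% of all tested genes, and none passed the variability test. None was lower in library 1 than in library 3 by 2-fold (4.22% of all tested genes were), although Klf16 and Klf5 lie at the level of the low members. Klf17, Sp6 and Klf15 stayed under 0.5 CPM (means 0.290, 0.274 and 0.0377), and Klf14, Sp5, Sp7, Sp8 and Sp9 had no count in any library. The Sp6 count is uncertain, as a gene on the other strand covers 86.7% of its exons. The 10 members held 78.6%, 79.6% and 80.4% of the CPM of all 26 genes in libraries 1, 2 and 3, and Sp1 alone 40.7%, 43.2% and 44.1% of the CPM of the members.

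**Figure D4:**
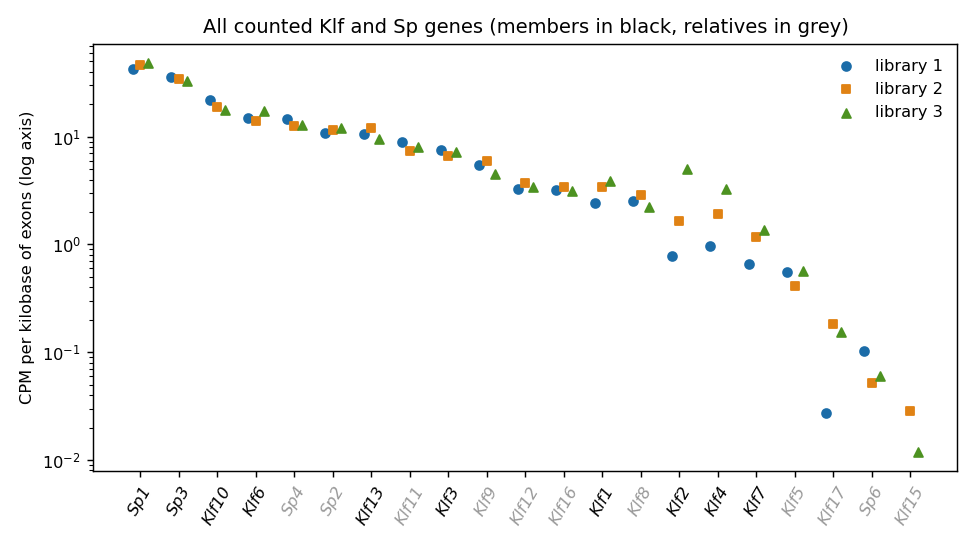
CPM per kilobase of annotated exons (log axis) for the 21 family genes with any count, by library, with members named in black and relatives in grey. Sp1 at 45.3 and Sp3 at 34.3 lead, the relatives Sp4 and Sp2 stand between Klf6 and Klf13, and a value of 0 in a single library is not drawn.

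The partners of these factors were expressed throughout. Of 20 listed cofactors 19 have an entry, all 19 reached 1 CPM, and their median mean was 73.8 CPM, against 25.9 CPM over all tested genes. The highest were the corepressor gene Ncor1 at 625 ± 14.5 CPM, the acetyltransferase genes Crebbp at 452 ± 69.7 and Ep300 at 385 ± 52.1 CPM, and the chromatin remodeler gene Smarca4 at 316 ± 23.1 CPM. Smurf1, a ubiquitin ligase gene, and Med26, of the Mediator complex, were lowest at 18.6 ± 0.927 and 15.3 ± 1.60 CPM. For the members' own corepressors, Sin3a lay at 278 ± 5.08 and Sin3b at 46.4 ± 4.16 CPM, with Ctbp1 at 70.4 ± 3.48 and Ctbp2 at 31.8 ± 1.72 CPM (these 4 were named outside the rule, after their values were seen). No cofactor passed the variability test and 13 of 19 passed the chi-square test, against 82.6% of all tested genes. The median log2 difference of library 3 from library 1 was -0.02, against 0.03 over all tested genes.

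The 10 listed genes of TGF-beta signalling, the pathway of Klf10, were likewise even, all at 1 CPM or more. Smad2 lay at 157 ± 7.51, Smad3 at 98.1 ± 13.2, Tgfb1 at 89.1 ± 6.74 and Smad4 at 88.4 ± 3.85 CPM. Lowest were Skil, a SMAD corepressor gene, at 46.8 ± 7.01 CPM and the inhibitory Smad7 at 21.0 ± 1.46 CPM. None passed the variability test, and 8 of 10 passed the chi-square test, against 82.6% of all tested genes. Highest in library 1 were 6 of 10, against 31.9% of all tested genes.

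Genes linked to Klf2 in lymphocytes were expressed and differed little between libraries. All 8 reached 1 CPM, and Il6ra, an interleukin receptor gene, lay at 63.6 ± 4.00, Il7r at 30.9 ± 4.42 and S1pr4 at 23.8 ± 1.85 CPM. At the low end S1pr1, the receptor for tissue exit, was at 14.7, 17.3 and 21.2 CPM in libraries 1, 2 and 3, and the homing receptor gene Ccr7 at 2.47, 2.59 and 3.90 CPM. In all 4 of the 8 genes were highest in library 3, against 32.5% of all tested genes, each by less than 2-fold over library 1. Over the list the median log2 difference of library 3 from library 1 was -0.00034. None passed the variability test, and 7 of 8 passed the chi-square test, against 82.6% of all tested genes.

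Genes linked to Klf4 in monocytes were highest in library 3 in 8 of the 8 genes at 1 CPM or more (of 10 listed), against 32.5% of all tested genes. Itgam lay at 138 ± 8.82, Irf8 at 57.7 ± 14.4, Cd68 at 28.4 ± 7.03 and Csf1r, the M-CSF receptor gene, at 26.3 ± 9.98 CPM. Csf1r was at 15.5, 28.0 and 35.3 CPM in libraries 1, 2 and 3, the order of Klf4. At the bottom Fcgr1 had 14, 8 and 1 counts and Cd14 had 0, 6 and 12, near the floor of 3 counts. The median log2 difference of library 3 from library 1 was 0.88. At least 2-fold higher in library 3 than in library 1 were 4 of the 8, against 4.22% of all tested genes. All 8 passed the chi-square test, as did 82.6% of all tested genes, and none the variability test.

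Genes linked to Klf1 in red cells were mixed. Of 17 listed genes 16 have an entry and 11 reached 1 CPM. Cd44 lay at 470 ± 29.9, Bcl11a at 250 ± 12.5, Tfrc, the transferrin receptor gene, at 157 ± 38.1 and E2f2 at 38.3 ± 3.35 CPM, genes that non-erythroid cells also use. The haemoglobin genes Hbb-b1, Hba-a1 and Hbb-bt were listed at 0 in every library. Alignments that were not unique or were ambiguous went to no gene, so a 0 here does not show that haemoglobin RNA was absent. The erythroid membrane gene Slc4a1 (named after its values were seen) had 13.2 CPM in library 1, where Klf1 was lowest, and 1.43 and 2.46 CPM in libraries 2 and 3. The median log2 difference of library 3 from library 1 was 0.10, and none passed the variability test. At least 2-fold higher in library 3 were 3 of 11 (4.22% of all tested genes), and in library 1 1 of 11 (3.11%).

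Several Klf genes, Klf2, Klf4, Klf6 and Klf10 among them, are also known as immediate early genes, which cells switch on within minutes of stimulation or handling. Of 19 immediate early and heat shock genes 17 reached 1 CPM, and 15 of these were highest in library 3 (32.5% of all tested genes). At least 2-fold higher in library 3 than in library 1 were 13 of the 17, against 4.22% of all tested genes. Their median log2 difference of library 3 from library 1 was 1.45, beside 1.30 for the 4 low members, -0.09 for the 6 high ones and 0.03 for all tested genes. Egr1 lay at 156, 260 and 533 CPM, Zfp36 at 112, 132 and 230 CPM, Jun at 65.2, 135 and 179 CPM and Dusp1 at 89.0, 111 and 135 CPM in libraries 1, 2 and 3. Hspa1b and Atf3 were lowest, with means of 0.834 and 0.120 CPM. Fosl2 and Jund (named after their values were seen) were highest in library 1 (34.5 and 19.6 CPM), as was Klf10. So Klf2 and Klf4 had the order of most of this list and Klf10 the opposite order, while Klf6 was highest in library 3 but lowest in library 2. No gene of this list passed the variability test after adjustment. At an unadjusted p under 0.05 lay 12 of 17, against 4.54% of all tested genes.

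Marker lists of blood, endothelial and stromal cell types moved between libraries as well. The summed CPM of the 10 neutrophil and granule genes was 977, 1877 and 2998 in libraries 1, 2 and 3. Mpo alone held 683, 1544 and 2403 CPM of this, so the sum mainly follows that gene. Highest in library 1 were 5 of the 10 (S100a8, S100a9, Ngp, Ltf and Lcn2), and in library 3 the other 5 (Elane, Mpo, Prtn3, Ctsg and Camp). Lowest in library 2 were 6 (S100a8, S100a9, Ngp, Ltf, Lcn2 and Camp), and lowest in library 1 were 4 (Elane, Mpo, Prtn3 and Ctsg). Elane, a protease gene of early granules at 24.7, 112 and 240 CPM, was the 1 gene past the variability test (edgeR adjusted p = 0.0191). The sum of the 10 monocyte and macrophage genes, which share Csf1r, Ccr2, Cx3cr1, Cd68 and Cd14 with the Klf4 list, was 62.4, 73.3 and 109 CPM, with Marco at 0 and Adgre1, C1qa and Cd14 under 0.5 CPM in every library. Klf2 and Klf4 are abundant in endothelial cells, and the 10 endothelial and stromal genes summed to 154, 154 and 134 CPM, lowest in library 3. Pecam1 alone held 110, 110 and 100 CPM of this, so the sum mainly follows that gene. The defining endothelial gene Cdh5 had 0, 14 and 7 counts, lowest in library 1, with Col3a1 and Adipoq at 0. B cell genes summed to 77.4, 83.5 and 94.1 CPM, and T and NK cell genes to 125, 106 and 121 CPM (Cd3e at 0, 0 and 2 counts). Megakaryocyte genes summed to 388, 352 and 312 CPM (Gp6 at 0), and mature erythroid genes to 23.3, 17.8 and 15.9 CPM, with 5 of 8 at 0. Those 5 are haemoglobin genes, for which a 0 does not show absence. The spike-in share was highest in library 1 and lowest in library 3. The part of immediate early genes, other cells or spike-in share in the values of Klf2, Klf4, Klf7 and Klf1 was not tested.

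**Figure D5:**
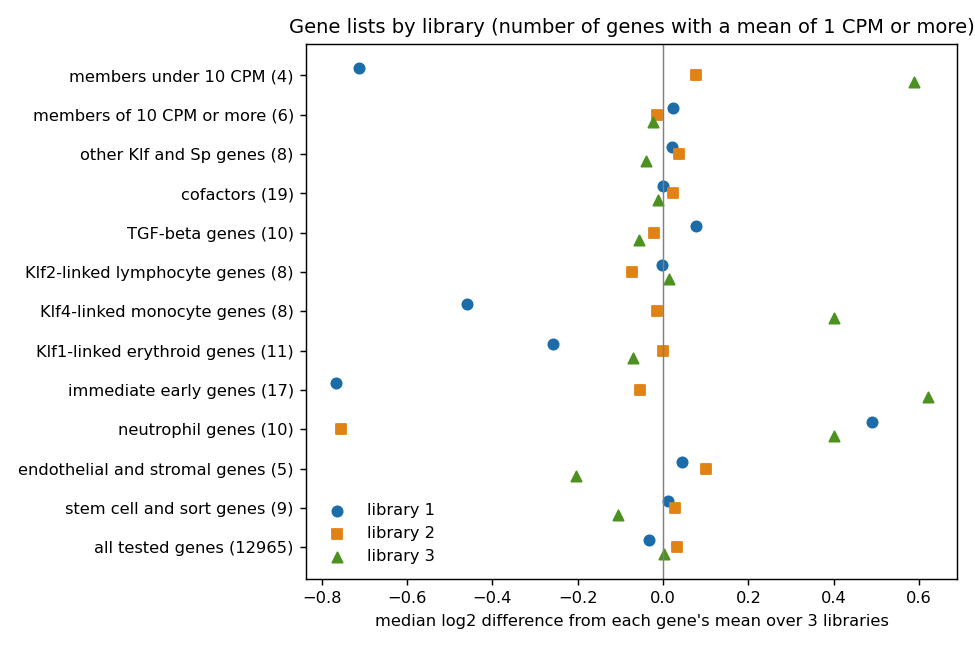
Median log2 difference of a list's genes from their own mean over the 3 libraries, by library, with the number of genes at 1 CPM or more in brackets. The low members (-0.71 in library 1, 0.59 in library 3) lie beside the immediate early genes (-0.77 and 0.62), and the high members, other family genes and cofactors stay within 0.05 of 0.

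The genes most like Klf2 and Klf4 across the libraries were sought among the 7326 genes that averaged 20 CPM or more, by the Euclidean distance of centred log2(CPM + 0.5) values over 3 libraries. Nearest to Klf2 were Egr1 (distance 0.42), F13a1 (0.51; 17.2, 42.4 and 71.3 CPM) and Mpo (0.59; 683, 1544 and 2403 CPM). Only 1 gene, Egr1, lay within 0.5 of Klf2. Nearest to Klf4 were Ier5 (0.06; 13.7, 26.6 and 41.3 CPM), Fos (0.16; 37.8, 82.3 and 125 CPM) and Igsf6 (0.21; 20.5, 36.7 and 52.1 CPM), and 37 genes lay within 0.5. With 3 libraries this likeness is a description of the same 3 values, with no test.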

How the data were processed

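RNA of sorted bone marrow HSPCs was amplified from 10 ng with the NuGEN Ovation system, per the labels' protocols. The deposited values are raw counts of reads, listed by gene symbol for each library. TopHat2 2.0.9 and HTSeq, with DESeq2 and the mm10 build, are named in the submitters' processing notes. Gene model and strand setting: not given in the sources used here. The 92 spike-in entries and 5 HTSeq category entries were left out of totals and tests. Alignments in no gene took 43.5%, 48.4% and 42.9% of all entries in libraries 1, 2 and 3, non-unique ones 17.0%, 16.5% and 16.0%, and ambiguous ones 0.702%, 0.666% and 0.800%. Reads in overlapping genes can be dropped as ambiguous.

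CPM used plain totals of gene counts, and logs were log2(CPM + 0.5), a scale that shrinks the differences of low genes. Ratios have exact (Clopper-Pearson based) 95% intervals, and these and the floor of 3 counts cover counting error only. Genes that averaged 1 CPM or more entered a chi-square test (2 degrees of freedom) and edgeR's quasi-likelihood fit with TMM (intercept only, robust), each gene's dispersion over the trend by an F test, with Benjamini-Hochberg adjusted p under 0.05. Both were also run on simulated counts. The outcome is not reported here, so the power of the variability test with 3 libraries is not given. Lengths came from GENCODE M21 (GRCm38), matched for 95.7% of symbols, and promoters from RefSeq (GRCm38.p6). Members and lists were chosen with earlier results of these data known. All members were named. Other lists gave up to 4 highest and 2 lowest genes, those past the variability test, and for the 2 members of largest log2 range the 3 nearest genes. Some genes that this rule or these lists cover are not reported here by name. No per-sample column went unused. Software was R 4.3.3, edgeR 4.0.16, DESeq2 1.42.0, Python 3.11.15, NumPy 2.4.6, SciPy 1.17.1 and pandas 2.3.3.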

Additional observations from a re-analysis of the deposited data

Results flagged for a closer look

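The spike-in RNAs, which no comparison used, were counted above the floor in every library. Their counts came to 1.48%, 0.954% and 0.582% of the gene counts in libraries 1, 2 and 3. This is the reverse of the order of Klf1, Klf2, Klf4, Klf7 and Sp1, an order that 22.8% of all tested genes had. What this share has to do with these genes was not tested.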

How the results depend on the processing

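The number of members past the chi-square test stayed at 10 with TMM, DESeq2 size factors, totals without Rn45s and no expression minimum, and was 8 with a minimum of 5 CPM, which leaves Klf1 and Klf2 untested. Leaving out 1 library gave 6 to 9, lowest without library 1. The number past the variability test was 0 in all 8 alternatives, in which 1 to 33 of all genes passed. The minimum of 5 CPM left Klf1 and Klf2 untested here too. Of neighbouring pairs 7 kept their order, 6 with the longest transcript, 4 by CPM without length, where Klf10, Klf3, Klf13 and Klf6 ran together, and 7 to 9 when a library was left out. The count of members 2-fold higher in library 3 than in library 1 stayed at 3 with TMM and without Rn45s, and was 1 against library 2 (alternatives chosen after seeing the data). Totals without Rn45s moved the means of Klf3, Sp1 and Sp3 to 88.7, 413 and 187 CPM, by more than 1 SD. The other 57 alternatives for mean CPM stayed within it. The log2 ranges of Sp1 and Sp3 moved to 0.11 and 0.16 there, and the other 38 stayed within 1.5 times. Counting error limits Klf2 most, at 44 counts in library 1. No paired analysis was possible because the libraries form a single group.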
